A study of Mus musculus with 8 samples.

Results

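The genes described here are the cornified envelope genes of the epidermal differentiation complex, a cluster on mouse chromosome 3. They were taken by name and annotation. No measured value enters the rule, but it was set with earlier results of these data known, so the set is not blind to them. The rule takes protein-coding genes of GENCODE M21 on chromosome 3 whose symbols start with Sprr, Lce or Kprp. It adds Lor, Ivl, Flg, Flg2, Hrnr, Rptn, Tchh, Tchhl1, Crnn, Crct1, Smcp, Pglyrp3 and Pglyrp4. The S100 genes that lie among them were left out of the set. The rule found 50 genes of the 55487 gene rows in each library. They comprise 11 Sprr2 genes, 4 other Sprr genes (Sprr1a, Sprr1b, Sprr3 and Sprr4), 14 Lce1 genes, 6 Lce3 genes, Lce6a, 7 genes of the fused S100 type (Flg, Flg2, Hrnr, Rptn, Tchh, Tchhl1 and Crnn), loricrin and involucrin, Pglyrp3 and Pglyrp4, and 3 others (Kprp, Crct1 and Smcp). On GRCm38 (mm10) they span 2745 kb, chr3:90726906-93471980, and 1457 kb when the outlying Pglyrp4 is set aside.

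The cornified envelope replaces the plasma membrane of a keratinocyte as it dies at the skin surface. Involucrin and other scaffold proteins are laid down first, loricrin, small proline-rich proteins (Sprr) and late cornified envelope proteins (Lce) are then cross-linked onto them by transglutaminases, and filaggrin-type proteins with a fused S100 domain bundle keratin filaments beneath. In mouse back skin, loricrin and filaggrin are known as products of the granular layer, whereas many Sprr genes are better known from stressed or thickened epidermis and from the squamous lining of the mouth and forestomach.

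RNA came from the epidermis of dorsal skin of wild-type FVB mice aged 7 to 8 weeks, peeled off after Dispase digestion, in 8 libraries that form 4 groups of 2. The DMBA group received 100 µl of DMBA at 1 mg/ml, a carcinogen that initiates skin tumours, as a single application, and was harvested on day 10. The DMBA/TPA group received the same dose and then TPA, a phorbol ester that promotes tumours, 2 times per week at 0.1 mg/ml, and its skin was taken on day 52. The treated groups were compared with acetone-treated animals, the solvent alone, which form a group of their own for each schedule, called Control DMBA and Control DMBA TPA after their titles. The labels give no harvest day for either acetone group. All 4 groups share the strain, the genotype and the vehicle, and TPA was given only after DMBA, so the effect of TPA alone cannot be told apart from that of the pair. The labels do not say whether libraries of the same group are different animals, so p-values reflect no more than the spread seen between libraries, and that spread may be technical.

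The libraries held 26300400 to 36002886 counts in genes. Of all deposited counts, summary lines included, genes took 35.2% to 43.3%, and the reads listed as not aligned ranged from 3.80% to 16.4%, highest in DMBA/TPA 2. Basal keratinocyte markers (Krt5, Krt14, Col17a1, Itgb4 and Itga6, all 5 measured) summed to between 13130 and 32570 CPM (counts scaled to a common library size) and spinous markers (Krt1 and Krt10 first, 5 of 5 measured, Krtdap and Sbsn among them) to between 12050 and 20210 CPM. Fibroblast markers (Col1a1, Col1a2, Col3a1, Dcn and Lum, all 5 measured) summed to 975 and 451 CPM in the Control DMBA libraries, 31.9 and 46.7 after DMBA, 17.6 and 32.8 in the Control DMBA TPA libraries and 1124 and 3208 after DMBA/TPA. Neutrophil markers (S100a8, S100a9 and Ly6g) summed to at most 2.65 CPM outside DMBA/TPA and to 131 and 225 CPM within it, with Ly6g at 0 counts in all 8 libraries, and T cell markers (Cd3e, Cd3g, Trdc and Thy1) to 122 to 191 CPM outside and to 69.0 and 58.3 CPM within. Testis markers were at or near 0 in every library. Because these are bulk samples, fewer cells of a type and less RNA per cell cannot be told apart, and the part that a changed mixture of cells has in the results below was not tested.

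The 50 genes together took 0.361% and 0.460% of gene counts in the Control DMBA libraries, 0.376% and 0.391% after DMBA, 0.654% and 0.585% in the Control DMBA TPA libraries and 1.43% and 1.22% after DMBA/TPA. DMBA/TPA thus held the highest share and the Control DMBA and DMBA libraries the lowest, with no overlap between DMBA/TPA and any other group. Expressed per kb of exon, so that genes can be set side by side, the order of the leading genes differed between groups. In Control DMBA the highest level was that of Sprr1a, at 301 ± 24.9 CPM per kb (SD, n = 2), with Sprr4 at 269 ± 46.7 within the spread of the pair, and loricrin lower at 126 ± 25.6. The DMBA group had the same leading members, with Sprr1a at 438 ± 137, Sprr4 at 357 ± 99.9 and loricrin at 119 ± 28.3 CPM per kb. Control DMBA TPA was instead led by loricrin at 260 ± 20.5, Lce1m at 233 ± 15.7, Flg2 at 199 ± 22.9 and Crct1 at 186 ± 8.73 CPM per kb, and Sprr1a stood at 59.1 ± 1.49. In DMBA/TPA, Sprr1a at 917 ± 555 and Sprr1b at 525 ± 387 led with a wide spread between the libraries, followed by Crct1 at 449 ± 17.5, loricrin at 373 ± 53.5, filaggrin at 235 ± 6.01 and Lce1a1 at 215 ± 38.9 CPM per kb. Within their SD, Sprr1a, Sprr1b and Crct1 overlapped there, as did filaggrin and Lce1a1. Both Sprr1a and Sprr1b also overlapped loricrin, and Sprr1b overlapped filaggrin and Lce1a1 as well. Each gene named for Control DMBA TPA down to Crct1 overlapped the next.

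**Figure D1:**
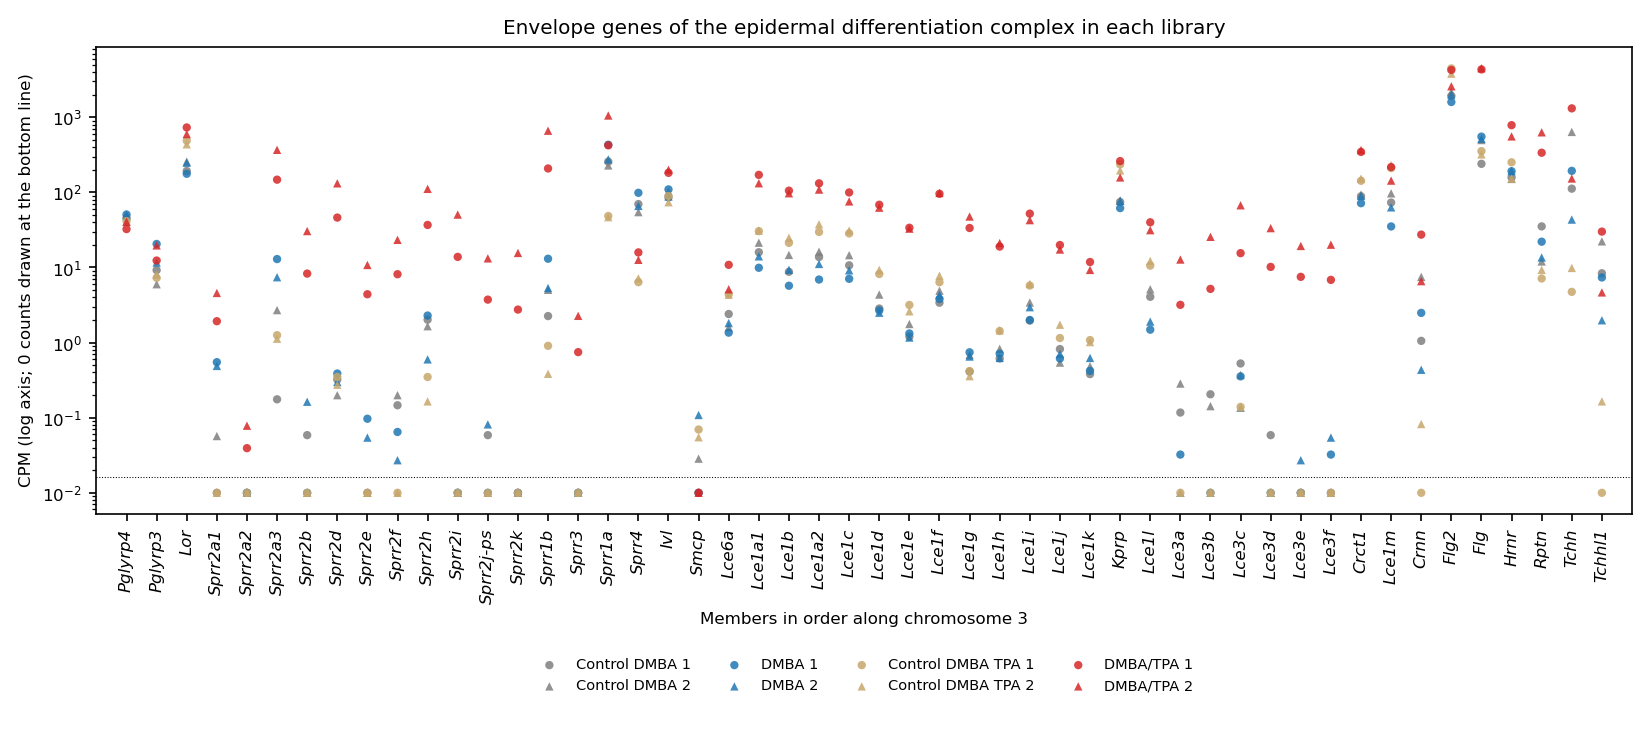
Level of each of the 50 genes in each of the 8 libraries in CPM on a log axis, with genes in their order along chromosome 3 and colour and symbol giving the group and library; genes with 0 counts are drawn on the bottom line. Lce3 genes lie at or below 0.527 CPM in 6 libraries and at 3.18 CPM or more in the DMBA/TPA libraries, Sprr2a3 reaches 12.95 CPM after DMBA and 369 after DMBA/TPA, and loricrin, Flg2 and Kprp are at 61.8 CPM or more in every library.

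DMBA followed by TPA raised most of the set against its acetone group. Of the 48 genes that could be tested, 42 rose and 6 were not called in the quasi-likelihood test of edgeR at a Benjamini-Hochberg adjusted p under 0.05 over all 19450 genes tested. In the same comparison 40.7% of all genes tested were called, 22.4% of them higher and 18.3% lower as shares of all tested. The median log2 fold change was 3.88 over the 48 genes and -0.00286 over all genes tested. These counts carry a limit: 12 of the 48 entered the test only because of their counts in the DMBA/TPA libraries and so had to be higher there. Of the 36 that would have entered without those libraries, 30 were called higher, and their median log2 fold change was 3.17. Sprr2a2, with 3 counts in all, and Smcp, a sperm mitochondrial protein gene with at most 4 counts in a group, were not tested.

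**Figure D2:**
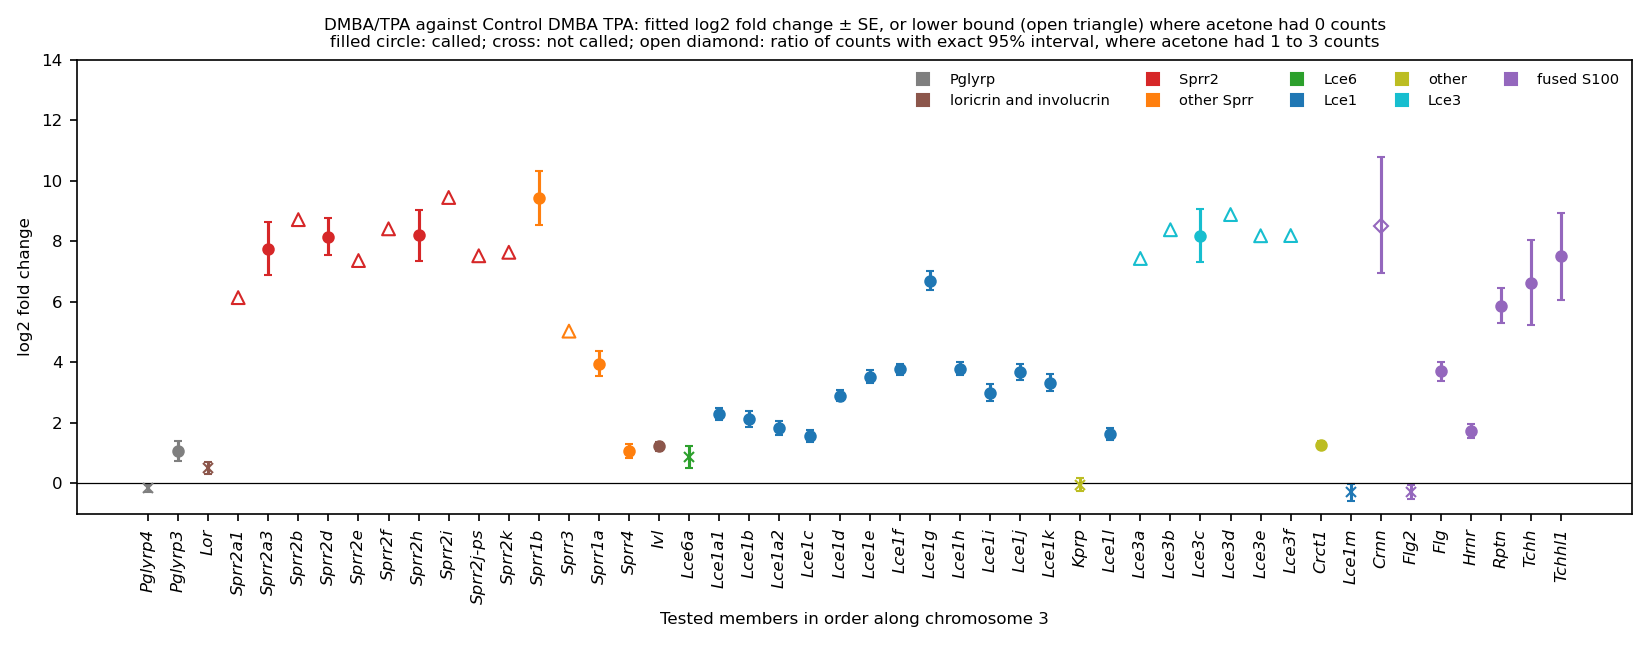
Fitted log2 fold change ± SE of DMBA/TPA against Control DMBA TPA for the 48 tested genes in their order along chromosome 3, coloured by subfamily; open triangles are lower bounds where the acetone libraries had 0 counts and the open diamond is a ratio of counts with its exact 95% interval. Sprr2d sits at 8.16, Lce3c at 8.19 and Sprr1b at 9.44, Lce1 genes other than Lce1g and Lce1m between 1.56 and 3.79, and loricrin, Kprp, Lce1m and Flg2 near 0.

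The upstream sequences of a few members are shown because the Sprr2 and Lce3 genes rose together while loricrin was not called, and because the sequence of the start region differs between these blocks. RefSeq start regions on GRCm38.p6 matched 44 of the 50 genes by symbol. In each line the 250 bases before the annotated start are written 5′ to 3′ on the gene's strand. Capitals mark matches to TGANTCA or to TATAAA, searched on both strands. TGANTCA is a loose form, with any base at N, of the AP-1 motif. AP-1 comprises the Jun and Fos factors that phorbol esters are known to activate. The lines are Sprr2d (plus strand, chr3:92338890-92339139), Sprr2i (plus strand, chr3:92407741-92407990), Sprr1b (minus strand, chr3:92438780-92439029), Flg (plus strand, chr3:93273296-93273545), Lor (minus strand, chr3:92083143-92083392) and Lce3c (plus strand, chr3:92944236-92944485).
Sprr2d: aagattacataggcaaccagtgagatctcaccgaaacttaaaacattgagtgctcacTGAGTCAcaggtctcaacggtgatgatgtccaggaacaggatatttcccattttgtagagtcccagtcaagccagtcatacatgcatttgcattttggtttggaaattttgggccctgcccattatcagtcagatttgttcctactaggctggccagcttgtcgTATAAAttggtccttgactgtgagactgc
Sprr2i: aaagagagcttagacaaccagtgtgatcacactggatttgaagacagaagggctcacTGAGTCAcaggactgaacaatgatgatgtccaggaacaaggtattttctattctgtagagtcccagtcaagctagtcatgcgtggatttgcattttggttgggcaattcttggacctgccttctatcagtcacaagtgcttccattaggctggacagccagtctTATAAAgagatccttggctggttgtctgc
Sprr1b: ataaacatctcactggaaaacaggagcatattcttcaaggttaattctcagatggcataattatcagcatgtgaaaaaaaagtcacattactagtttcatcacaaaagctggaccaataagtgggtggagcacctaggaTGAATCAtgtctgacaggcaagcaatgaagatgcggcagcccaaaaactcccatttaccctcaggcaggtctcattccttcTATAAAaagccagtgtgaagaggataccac
Flg: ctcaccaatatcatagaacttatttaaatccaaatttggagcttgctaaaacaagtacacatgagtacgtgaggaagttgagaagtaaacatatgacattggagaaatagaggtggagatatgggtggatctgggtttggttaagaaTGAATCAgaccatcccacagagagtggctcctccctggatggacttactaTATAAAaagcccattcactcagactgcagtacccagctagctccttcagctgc
Lor: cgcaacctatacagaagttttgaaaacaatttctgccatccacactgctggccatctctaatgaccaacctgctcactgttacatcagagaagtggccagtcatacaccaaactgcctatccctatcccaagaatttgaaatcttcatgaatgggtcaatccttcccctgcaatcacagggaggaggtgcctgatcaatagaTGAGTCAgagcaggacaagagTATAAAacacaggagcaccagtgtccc
Lce3c: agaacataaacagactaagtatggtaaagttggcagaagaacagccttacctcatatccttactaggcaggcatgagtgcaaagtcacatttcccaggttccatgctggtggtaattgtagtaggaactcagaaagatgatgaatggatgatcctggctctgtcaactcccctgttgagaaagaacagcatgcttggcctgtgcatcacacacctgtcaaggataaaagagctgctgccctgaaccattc
TGANTCA lay in 16 of the 44 start regions, counted over the 250 bases before and 50 after the start, and in 7.81% of all 32851 start regions of the same length. TATAAA lay in 20 of the 44 and in 13.6% of all. By subfamily, TGANTCA was found in 7 of 10 Sprr2 genes, 5 of 7 fused S100 genes, both loricrin and involucrin and 2 of 4 other Sprr genes. It was found in 0 of 13 Lce1 and 0 of 6 Lce3 genes. Sprr2a1, Sprr2a2 and Sprr2a3, the last being the most abundant Sprr2 gene, had neither TGANTCA nor TATAAA. The base at N was G or C in the Sprr2 matches, loricrin, involucrin and Sprr1a. In every fused S100 match, Flg included, and in Sprr1b it was A or T, so these match only the loose form. In Sprr2d and Sprr2i the first base of TGANTCA was at -193 and TATAAA began at -29. In Sprr1b TGANTCA began at -111, in Flg at -103 and in Lor at -48. AACCNGTT, a motif of grainyhead-like factors, lay in 1 of the 44, that of Rptn, and in 2.09% of all. The matches shown in capitals do not overlap. A match describes letters in this window and says nothing of binding.

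The Sprr2 genes encode small proline-rich proteins that bridge other envelope proteins. Outside DMBA/TPA most Sprr2 genes had few or 0 counts, with Sprr2a3 and Sprr2h among the exceptions. Sprr2d measured 0.322 and 0.200 CPM in the Control DMBA libraries, 0.388 and 0.299 after DMBA, 0.349 and 0.275 in the Control DMBA TPA libraries, and 46.2 and 132 after DMBA/TPA. Both DMBA/TPA libraries were far above the other 6, which overlapped one another. Its log2 fold change was 8.16 ± 0.61 (SE, edgeR adjusted p = 0.000316). Sprr2a3, the most abundant of the block, had 148 and 369 CPM after DMBA/TPA, beside 1.26 and 1.13 in its acetone group (Control DMBA TPA), 12.95 and 7.42 after DMBA and 0.176 and 2.71 in the Control DMBA libraries. Its DMBA libraries lay above all acetone libraries and below both DMBA/TPA libraries, and its log2 fold change in DMBA/TPA was 7.76 ± 0.87 (edgeR adjusted p = 0.000808).

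Sprr2i had 0 counts in all 6 libraries of the other groups and 13.8 and 50.7 CPM in DMBA/TPA, at least 701-fold higher than Control DMBA TPA when 3 counts are taken as the group's floor. Sprr2b had 8.30 and 30.5 CPM after DMBA/TPA, 0.0586 CPM in Control DMBA 1, 0.163 in DMBA 2 and 0 counts in the other 4 libraries, at least 421.8-fold higher. In both genes the DMBA/TPA libraries stood apart from all others. All 10 tested Sprr2 genes rose, 8 of the 11 members had 0 counts in Control DMBA TPA, and the lower bounds of the others with 0 counts ran from 70.7-fold (Sprr2a1) to 342-fold (Sprr2f). Their median log2 fold change, with such members at their bound, was 7.96. Only 4 of the 11 would have entered the test without the DMBA/TPA libraries. For the other tested ones the higher level there was fixed by the filter. Intervals and floors cover counting error only.

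Sprr1a and Sprr1b, the classical stress-responsive members that cross-link early to the scaffold, differed in their level without treatment. Sprr1b measured 2.26 and 5.04 CPM in the Control DMBA libraries, 13.1 and 5.33 after DMBA, 0.906 and 0.385 in the Control DMBA TPA libraries, and 208 and 662 after DMBA/TPA, which lay above all others. It rose by 9.44 ± 0.89 on the log2 scale (edgeR adjusted p = 0.000483). Sprr1a was already abundant, with 257 and 228 CPM in the Control DMBA libraries, 431 and 275 after DMBA, 48.5 and 46.8 in the Control DMBA TPA libraries, and 423 and 1055 after DMBA/TPA. DMBA/TPA 1 lay within the range of the DMBA libraries, so the groups overlap there, while both DMBA/TPA libraries were above both acetone groups. Its log2 fold change against Control DMBA TPA was 3.96 ± 0.42 (edgeR adjusted p = 0.000694).

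Sprr3, known from squamous lining epithelia, had 0 counts in the 6 other libraries and 0.747 and 2.27 CPM in DMBA/TPA, at least 32.8-fold higher. It entered the test only through the DMBA/TPA libraries. Sprr4, a keratinocyte member of the family, differed in its levels. It had 15.9 and 12.6 CPM after DMBA/TPA, beside 6.38 and 7.17 in its acetone group (Control DMBA TPA), 98.7 and 66.0 after DMBA and 69.8 and 54.6 in the Control DMBA libraries. Control DMBA TPA and DMBA/TPA lay below Control DMBA and DMBA with no overlap. Against Control DMBA TPA, Sprr4 rose by 1.07 ± 0.23 on the log2 scale (edgeR adjusted p = 0.00798), but against Control DMBA the same libraries gave -2.12 (edgeR adjusted p = 0.00141). The direction of Sprr4 thus depends on which acetone group is used, and without Control DMBA TPA 1 its log2 value was 0.99 (adjusted p = 0.0591).

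The Lce3 genes form a compact 68 kb block and are known in human skin for induction after barrier injury. Lce3c, the most abundant, measured 0.527 and 0.371 CPM in the Control DMBA libraries, 0.355 and 0.136 after DMBA, 0.139 and 0.137 in the Control DMBA TPA libraries, and 15.5 and 67.3 after DMBA/TPA. Both treated libraries of the longer schedule were far above the rest, and Lce3c rose by 8.19 ± 0.88 on the log2 scale (edgeR adjusted p = 0.000715). Lce3d had 0.0586 CPM in Control DMBA 1, 0 counts in the 5 others and 10.2 and 33.4 CPM in DMBA/TPA, at least 474-fold higher than Control DMBA TPA. Lce3b had 0.205 and 0.143 CPM in the Control DMBA libraries, 0 counts in the DMBA and Control DMBA TPA libraries, and 5.19 and 25.6 CPM after DMBA/TPA, at least 335-fold higher. In all 6 Lce3 genes both DMBA/TPA libraries lay above every other library, and all 6 rose. Lower bounds for Lce3a, Lce3e and Lce3f were 173-fold, 292-fold and 293-fold. Only 1 of the 6 would have entered the test without the DMBA/TPA libraries. For the others the higher level there was fixed by the filter and is no separate result.

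The Lce1 genes, which encode the glycine- and cysteine-rich late envelope proteins of normal upper epidermis, were detected in every group, and 13 of 14 rose in DMBA/TPA. Lce1a1 had 171 and 132 CPM after DMBA/TPA, beside 30.5 and 31.1 in its acetone group (Control DMBA TPA), 9.92 and 14.1 after DMBA and 15.97 and 21.4 in the Control DMBA libraries. The 4 groups did not overlap, with DMBA lowest and DMBA/TPA highest. Its log2 fold change was 2.30 ± 0.21 (edgeR adjusted p = 0.000445). Lce1g measured 0.410 and 0.684 CPM in the Control DMBA libraries, 0.743 and 0.652 after DMBA, 0.418 and 0.357 in the Control DMBA TPA libraries, and 33.6 and 47.7 after DMBA/TPA. Control DMBA overlapped both DMBA and Control DMBA TPA, and the rise of 6.71 ± 0.31 on the log2 scale was the largest of the subfamily, with the smallest adjusted p of all members (edgeR, 7.53e-05). Lce1h, next to it on the chromosome, had 19.0 and 21.1 CPM after DMBA/TPA, beside 1.43 and 1.46 in its acetone group (Control DMBA TPA), 0.711 and 0.625 after DMBA and 0.615 and 0.826 in the Control DMBA libraries, with DMBA/TPA above all and a log2 fold change of 3.79 ± 0.22 (edgeR adjusted p = 0.000166).

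Lce1m, the most abundant Lce1 gene in the acetone libraries and the one that lies apart from its subfamily beside Crct1, was not called. It measured 73.2 and 97.0 CPM in the Control DMBA libraries, 35.2 and 63.2 after DMBA, 211 and 232 in the Control DMBA TPA libraries, and 217 and 144 after DMBA/TPA. After DMBA/TPA, library 1 lay within the range of the acetone group and library 2 below it, and the log2 value was -0.29 ± 0.28 (edgeR adjusted p = 0.433). Against Control DMBA it was 1.08 and called (edgeR adjusted p = 0.0347). The remaining called Lce1 genes had log2 fold changes of 1.56 (Lce1c) to 3.77 (Lce1f), and the subfamily median was 2.96. Lce6a had 10.9 and 5.13 CPM after DMBA/TPA, beside 4.39 and 4.34 in its acetone group (Control DMBA TPA), 1.36 and 1.82 after DMBA and 2.40 and 1.596 in the Control DMBA libraries, and was not called (log2 0.87 ± 0.36, edgeR adjusted p = 0.0873). Without DMBA/TPA 2 it was called at 1.32.

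Filaggrin, the precursor that is cut into keratin-bundling units and then into the amino acids that hold water in the stratum corneum, rose from a high level. Flg measured 240 and 498 CPM in the Control DMBA libraries, 552 and 516 after DMBA, 354 and 320 in the Control DMBA TPA libraries, and 4338 and 4498 after DMBA/TPA. The DMBA/TPA libraries were close to each other and far above the rest, and Flg rose by 3.71 ± 0.31 on the log2 scale (edgeR adjusted p = 0.000377). Its neighbour Flg2, filaggrin-2, had 4260 and 2585 CPM after DMBA/TPA, beside 4477 and 3805 in its acetone group (Control DMBA TPA), 1597 and 2009 after DMBA and 1925 and 2168 in the Control DMBA libraries. The DMBA/TPA libraries overlapped their acetone group, and Flg2 was not called (log2 -0.27 ± 0.23, edgeR adjusted p = 0.372). Without DMBA/TPA 1 its value was -0.67 and called lower (edgeR adjusted p = 0.0188).

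Hornerin, a filaggrin-like envelope protein, measured 158 and 151 CPM in the Control DMBA libraries, 192 and 192 after DMBA, 252 and 152 in the Control DMBA TPA libraries, and 785 and 556 after DMBA/TPA. It rose by 1.73 ± 0.24 on the log2 scale (edgeR adjusted p = 0.00168), with DMBA/TPA above all other libraries and the acetone groups overlapping. Repetin, an envelope precursor that is scarce in resting back skin, had 337 and 631 CPM after DMBA/TPA, beside 7.14 and 9.31 in its acetone group (Control DMBA TPA), 22.1 and 13.6 after DMBA and 35.3 and 12.0 in the Control DMBA libraries. Both DMBA/TPA libraries were above the rest, and Rptn rose by 5.87 ± 0.59 (edgeR adjusted p = 0.000569).

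Trichohyalin, which hardens the inner root sheath and medulla of the hair, varied widely within groups, as did Tchhl1 and Crnn of the same fused S100 type. Tchh measured 112 and 638 CPM in the Control DMBA libraries, 193 and 43.4 after DMBA, 4.74 and 9.86 in the Control DMBA TPA libraries, and 1314 and 153 after DMBA/TPA. The Control DMBA TPA libraries were the lowest, and the other 3 groups overlapped. Against Control DMBA TPA it rose by 6.64 ± 1.40 on the log2 scale (edgeR adjusted p = 0.00769), but against Control DMBA its value was 0.97 (edgeR adjusted p = 0.551), and without Control DMBA TPA 1 it was 6.22 (adjusted p = 0.0655). Tchhl1 had 30.04 and 4.66 CPM after DMBA/TPA, beside 0 and 0.165 in its acetone group (Control DMBA TPA), 7.36 and 1.98 after DMBA and 8.38 and 22.3 in the Control DMBA libraries, a log2 fold change of 7.51 ± 1.44 (edgeR adjusted p = 0.00534) against 0.18 with Control DMBA as control (adjusted p = 0.904). Control DMBA TPA was again lowest, DMBA/TPA overlapped both Control DMBA and DMBA, and DMBA lay below Control DMBA. Crnn, cornulin, measured 1.06 and 7.50 CPM in the Control DMBA libraries, 2.49 and 0.435 after DMBA, 0 and 0.0824 in the Control DMBA TPA libraries, and 27.4 and 6.58 after DMBA/TPA. DMBA/TPA overlapped Control DMBA, and Control DMBA overlapped DMBA. With 3 counts in Control DMBA TPA its ratio was 368 (exact 95% interval 126 to 1789), it was called (edgeR adjusted p = 0.00593), and it was not called against Control DMBA (log2 1.99, adjusted p = 0.185) or without Control DMBA TPA 1 (log2 7.62, adjusted p = 0.0503).

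Keratins of the inner root sheath and hair shaft moved with these 3 genes. The summed CPM of 8 measured entries of that list (Krt25, Krt27, Krt28, Krt71, Krt72, Krt73, Krt31 and Krt35) was 110 and 593 in the Control DMBA libraries, 186 and 42.3 after DMBA, 1.64 and 5.58 in the Control DMBA TPA libraries, and 1559 and 232 after DMBA/TPA. The sum of Tchh, Tchhl1 and Crnn was 122 and 668, 203 and 45.9, 4.74 and 10.1, and 1371 and 164 CPM in the same order. The higher library of each group was the same for both sums, and Krt72 had 0 counts in Control DMBA TPA. All 8 keratins were called higher in DMBA/TPA, where 22.4% of all genes tested were. The part of these keratins in the result for the 3 genes was not tested.

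Loricrin, the most abundant protein of the finished envelope, was not called. Lor had 732 and 597 CPM after DMBA/TPA, beside 488 and 437 in its acetone group (Control DMBA TPA), 177 and 248 after DMBA and 193 and 257 in the Control DMBA libraries. The DMBA/TPA libraries were the highest of all, but the log2 value of 0.52 ± 0.20 missed the threshold (edgeR adjusted p = 0.0656). It was called with DESeq2 (Lor: log2 0.54, adjusted p = 0.0199), without Control DMBA 2 (log2 0.52, edgeR adjusted p = 0.0495) and against Control DMBA (log2 1.56, edgeR adjusted p = 0.00328). Involucrin, the early scaffold protein, measured 85.7 and 102 CPM in the Control DMBA libraries, 110 and 88.1 after DMBA, 89.6 and 73.9 in the Control DMBA TPA libraries, and 182 and 200.1 after DMBA/TPA. Its DMBA/TPA libraries lay above the others, which overlapped, and it rose by 1.23 ± 0.15 (edgeR adjusted p = 0.00112).

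Crct1, a small cysteine-rich gene of the cluster, had 346 and 366 CPM after DMBA/TPA, beside 143 and 153 in its acetone group (Control DMBA TPA), 71.8 and 90.1 after DMBA and 88.8 and 93.7 in the Control DMBA libraries. Control DMBA TPA and DMBA/TPA each stood apart from every other group, and it rose by 1.27 ± 0.12 on the log2 scale (edgeR adjusted p = 0.000517). Kprp, a keratinocyte proline-rich protein, measured 74.5 and 78.0 CPM in the Control DMBA libraries, 61.8 and 77.3 after DMBA, 236 and 196 in the Control DMBA TPA libraries, and 261 and 158 after DMBA/TPA. The latter groups overlapped, and its log2 value was -0.04 ± 0.22 (edgeR adjusted p = 0.887), against 1.46 and called with Control DMBA as control (edgeR adjusted p = 0.00608).

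Pglyrp3 and Pglyrp4 encode secreted peptidoglycan recognition proteins that kill bacteria. Pglyrp4 ranged only from 32.5 to 50.8 CPM over all libraries and was not called (log2 -0.16 ± 0.13, edgeR adjusted p = 0.325). Pglyrp3 had 12.4 and 19.7 CPM after DMBA/TPA, beside 7.28 and 8.05 in its acetone group (Control DMBA TPA), 20.6 and 11.6 after DMBA and 9.23 and 5.98 in the Control DMBA libraries. Both treated groups lay above both acetone groups and overlapped each other. Its log2 fold change was 1.06 ± 0.34 in DMBA/TPA (edgeR adjusted p = 0.0356) and 1.08 ± 0.33 in DMBA (adjusted p = 0.299). The DMBA/TPA call was lost without Control DMBA TPA 1 (log2 0.99, adjusted p = 0.155), without Control DMBA TPA 2 (log2 1.13, adjusted p = 0.116) and without DMBA/TPA 2 (log2 0.69, adjusted p = 0.188).

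The DMBA/TPA libraries differed from each other by subfamily. All 11 Sprr2 genes were higher in DMBA/TPA 2 than in DMBA/TPA 1, by 1.99 to 5.68 times with a median of 2.87. The lowest of these ratios, 1.99, is that of the untested Sprr2a2 and rests on single counts. All 6 Lce3 genes were also higher in DMBA/TPA 2, by 2.58 to 4.93 times. The Lce1 genes had ratios of 0.660 to 1.42, and 11 of 14 were lower in DMBA/TPA 2. Tchh, Tchhl1 and Crnn had ratios of 0.117, 0.155 and 0.240. Over all 19275 genes with counts in both libraries, the median ratio was 0.996, 4.42% were at or above 2 and 6.81% were at or below 0.5. Of the 48 tested members, 19 were at or above 2 and 4 at or below 0.5.

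**Figure D3:**
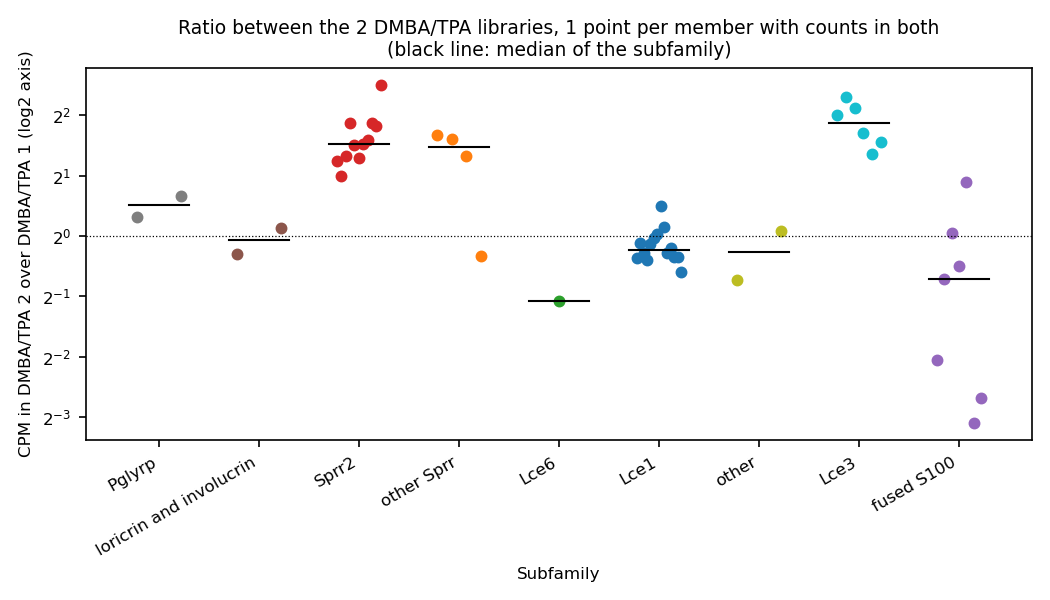
Ratio of CPM in DMBA/TPA 2 to CPM in DMBA/TPA 1 on a log2 axis for the 49 members with counts in both libraries, 1 point per gene, grouped by subfamily with black lines at the medians. Sprr2 points lie between 1.99 and 5.68 and Lce3 points between 2.58 and 4.93, all above the line of equal levels, whereas most Lce1 points lie just below it. The Sprr2 point at 1.99 is the untested Sprr2a2, which rests on single counts.

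Of the keratins of thickened or wounded epidermis, Krt6a, Krt6b and Krt16 were higher in DMBA/TPA 2, as Sprr2 and Lce3 genes were, and Krt17 was not, at 1775 CPM in DMBA/TPA 1 and 1690 in DMBA/TPA 2. The summed CPM of Krt6a, Krt6b, Krt16 and Krt17 was 3136 and 2871 in the Control DMBA libraries, 4863 and 3248 after DMBA, 948 and 1395 in the Control DMBA TPA libraries, and 10440 and 28100 after DMBA/TPA. Sprr2 genes summed to 2.78 and 4.82, 16.3 and 9.13, 1.95 and 1.57, and 274 and 761 CPM in the same order, and Lce3 genes to 0.908 and 0.798, 0.420 and 0.217, 0.139 and 0.137, and 48.4 and 179 CPM. DMBA/TPA 2 was highest in all 3 sums, both DMBA libraries were above both acetone groups in the keratin and Sprr2 sums, and in Lce3 both DMBA libraries were below Control DMBA. The fibroblast sum was also higher in DMBA/TPA 2. Lce1 genes summed to 138 and 186, 78.6 and 122, 359 and 399, and 1100 and 921 CPM, an order that none of these marker sums shared. The part of cell makeup in these library differences was not tested.

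**Figure D4:**
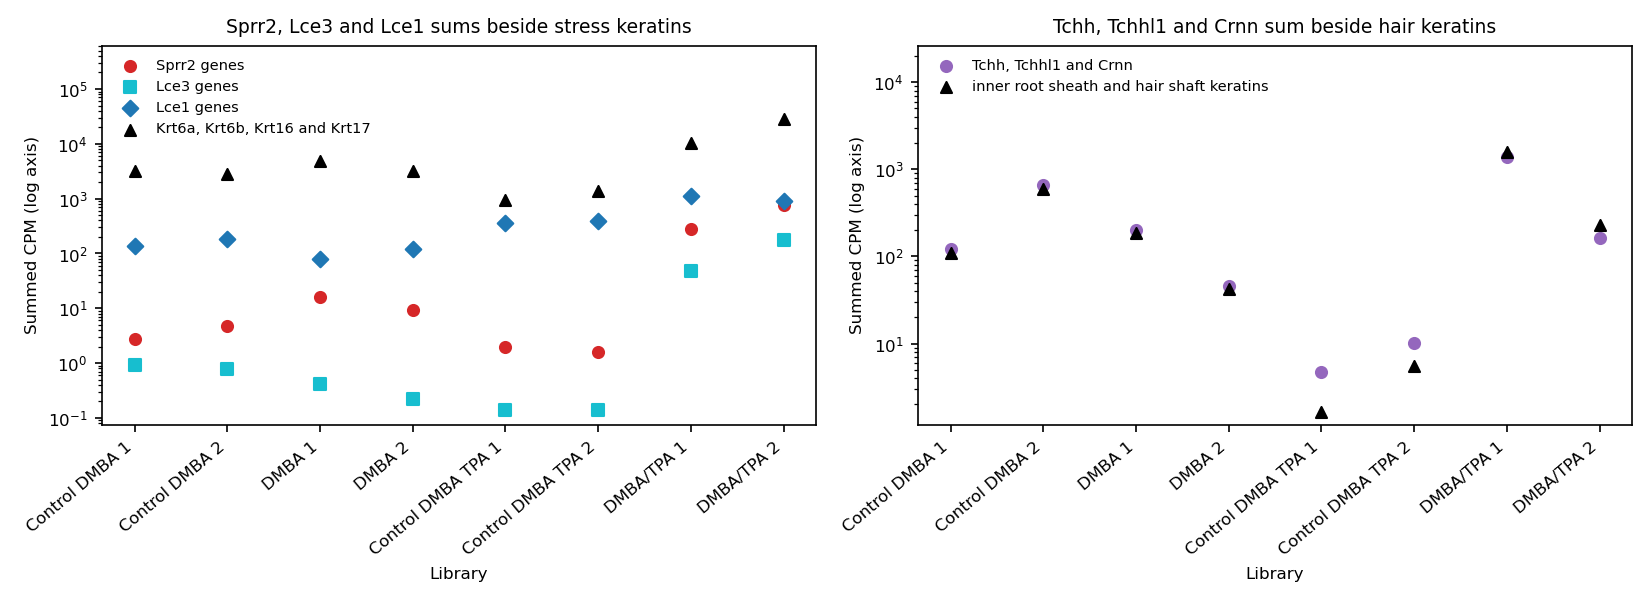
Summed CPM per library on log axes, with Sprr2, Lce3 and Lce1 genes beside the stress keratins Krt6a, Krt6b, Krt16 and Krt17 on the left, and Tchh, Tchhl1 and Crnn beside hair keratins on the right. On the left the Sprr2 sum reaches 274 and 761 CPM in DMBA/TPA with the stress keratins at 10440 and 28100, and on the right both sums are lowest in Control DMBA TPA and highest in DMBA/TPA 1.

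A single DMBA application gave no call among these genes. In DMBA against Control DMBA, 0 of 48 members were called by edgeR, where 0.267% of all genes tested were called (0.19% higher and 0.0771% lower). Of the 48, 8 members had an unadjusted p under 0.05, a count for which the share of all genes was not computed. DESeq2 called 3 members (Lce1l lower, Pglyrp3 and Sprr2a1 higher), beside 428 of all 19450 genes, and limma voom 0, beside 46. The smallest edgeR adjusted p was that of Lce1l, which stood at 4.07 and 5.13 CPM in Control DMBA and 1.49 and 1.90 in DMBA, a log2 value of -1.43 ± 0.22 (adjusted p = 0.0545). Its DMBA libraries were the lowest of all 8, it was called without DMBA/TPA 1 (adjusted p = 0.0274) or without DMBA/TPA 2 (0.0252), and it was named after its values were seen. In this comparison the log2 values of 12 of 14 Lce1 genes were negative, with a median of -0.37 and 5 at an unadjusted p under 0.05. Sprr2 genes had a median of 0.46, other Sprr genes of 0.47 and fused S100 genes of -0.41, beside -0.00621 over all genes tested. Filaggrin had a log2 value of 0.53 ± 0.28 (adjusted p = 0.650), with Control DMBA 1 below the other 3 libraries, and without Control DMBA 2 it was called at 1.15 (edgeR adjusted p = 0.0484). In the same comparison 2 of 5 fibroblast markers were called lower, and their sum was 975 and 451 CPM in the Control DMBA libraries beside 31.9 and 46.7 after DMBA, and the part of this shift in the members' values was not tested.

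The acetone groups differed from each other in part of the set. In Control DMBA TPA against Control DMBA, 16 of 48 members were called where 6.25% of all genes tested were called: 12 higher (1.97% of all genes tested) and 4 lower (4.28%). The higher members were loricrin by 1.04 ± 0.20 on the log2 scale (edgeR adjusted p = 0.0255), Flg2 by 1.02 ± 0.24 (0.0439), Kprp by 1.501 ± 0.23 (0.0125), Crct1 by 0.69 ± 0.12 (0.0189), and 8 Lce1 genes, among them Lce1m by 1.38 ± 0.29 (0.0334) and Lce1h by 1.00 ± 0.24 (0.0460). The lower ones were Sprr4 at -3.20 ± 0.23 (edgeR adjusted p = 0.00188), Sprr1a at -2.35 ± 0.39 (0.0159), Tchh at -5.67 ± 1.34 (0.0463) and Tchhl1 at -7.33 ± 1.44 (0.0268). Marker lists differed between the acetone groups as well: 4 of 5 fibroblast markers, 5 of 8 hair keratins and 3 of 4 stress keratins were called lower in Control DMBA TPA, and their part in the members' differences was not tested. Of the 14 Lce1 genes, 13 had positive log2 values, with a median of 1.11, and other Sprr genes had a median of -2.45. These calls rest on few libraries: without either Control DMBA TPA library only Sprr4 kept its call, and without Control DMBA 1 most were lost. Calls over all genes tested also became far fewer in these fits, so the loss was not confined to the members. Without either DMBA/TPA library, which enters this comparison only through the shared spread, more members and more of all genes were called. In the fit without Control DMBA TPA 1, loricrin was at 0.96, Kprp at 1.36 and Sprr1a at -2.37, near their values in the full fit. Tchhl1 moved further, to -11.89 without Control DMBA TPA 2.

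**Figure D5:**
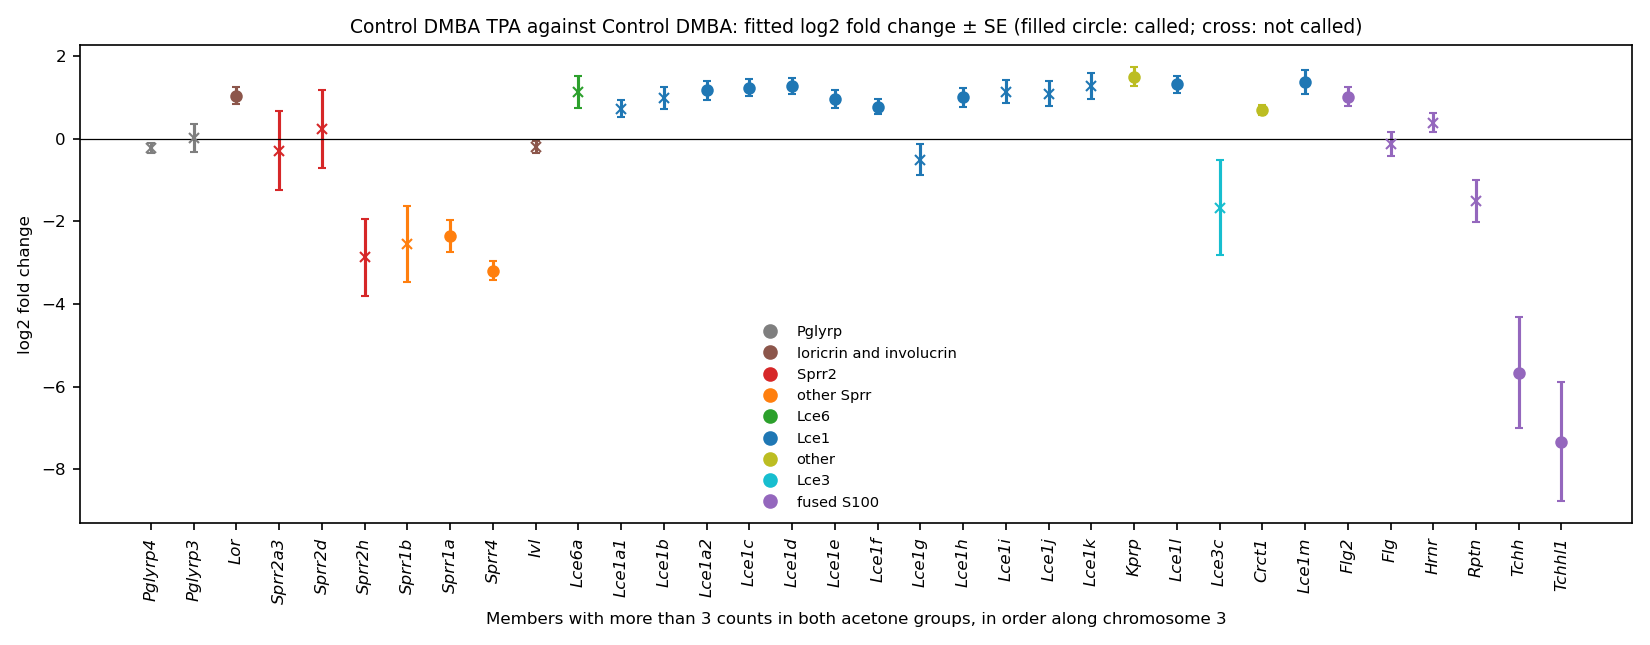
Fitted log2 fold change ± SE of Control DMBA TPA against Control DMBA for the tested members with more than 3 counts in both groups, coloured by subfamily; filled circles are called and crosses are not. Lce1 genes other than Lce1g, loricrin, Kprp and Flg2 lie above 0, whereas Sprr1a, Sprr4, Tchh and Tchhl1 lie between -2.35 and -7.33.

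Because of this difference each treated group was also set against the other acetone group, which shares its libraries with the comparison just given. DMBA against Control DMBA TPA called 23 members, 6 higher and 17 lower, where 16.5% of all genes tested were called. The higher were Sprr1a (log2 2.89), Sprr1b (3.87), Sprr2a1, Sprr2a3 (3.09), Sprr4 (3.60) and Tchhl1 (5.61), and the lower were loricrin (-1.12), Flg2 (-1.20), Kprp (-1.63), Crct1 (-0.87), Lce6a and 12 Lce1 genes. None of these was called against the group's own control. DMBA/TPA against Control DMBA called 42 members, 41 higher and Sprr4 lower, where 19.4% of all genes tested were called. Tchh, Tchhl1, Crnn and Pglyrp3 lost their call there, and loricrin, Kprp, Lce1m and Lce6a gained one. Sprr2, Lce3, Sprr1a, Sprr1b, Flg, Rptn, Hrnr, involucrin and Crct1 were thus called higher in DMBA/TPA against either acetone group. The 41 include the 12 members that entered the test only through the DMBA/TPA libraries, for which a higher level there was fixed by the filter. Only 4 Sprr2 genes and 1 Lce3 gene are free of that limit.

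Whether the responses to DMBA/TPA and to DMBA differed was tested as the difference of the log2 fold changes, each against its own acetone group. The treated groups differ in harvest day (10 and 52) as well as in TPA, and the acetone groups differ from each other. TPA, time and the acetone difference cannot be told apart in this test. Of 48 members 30 had a greater response in DMBA/TPA and 18 were not called, where 12.6% of all genes tested were called (8.7% greater and 3.95% smaller). Of the 36 members that would have entered the test without the DMBA/TPA libraries, 27 had a greater response. The other 12 entered only through those libraries, so the filter favoured a greater response in them in advance. The greater responses took in 13 of 14 Lce1 genes, 6 of 7 fused S100 genes, 4 Sprr2 genes, 3 Lce3 genes, Sprr1a, Sprr1b, involucrin and Crct1. Filaggrin differed by 3.18 ± 0.40 (edgeR adjusted p = 0.00505), Sprr1b by 8.12 ± 1.09 (0.00589), Lce1g by 6.37 ± 0.47 (0.00215) and Lce1a1 by 2.94 ± 0.29 (0.00286). Loricrin (0.60 ± 0.28, adjusted p = 0.176), Kprp (0.09 ± 0.31, 0.871), Flg2 (-0.09 ± 0.33, 0.873) and Sprr4 (0.67 ± 0.31, 0.173) were not called. For Sprr2e, Sprr2i, Sprr2k, Sprr3, Lce3e and Lce3f, which had 0 counts in both acetone groups, the fitted difference has no usable value. Without a single library at a time the count ranged from 21 to 33, lowest without DMBA 2, and 20 of the 30 were called in each of these fits.

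The genes that assemble and process the envelope moved in part with the members. Of 13 tested cross-linking and scaffold genes, 7 rose and 2 fell in DMBA/TPA, with a median log2 fold change of 1.53. Of all genes tested, 22.4% were called higher and 18.3% lower in this comparison, so the share that fell is near that of all genes. The 2 scaffold genes that fell were periplakin (Ppl) and Krt77, named after their values were seen. Tgm1, the membrane-bound transglutaminase of the envelope, measured 67.4 and 78.5 CPM in the Control DMBA libraries, 92.9 and 81.3 after DMBA, 76.1 and 81.3 in the Control DMBA TPA libraries, and 250 and 396 after DMBA/TPA, and rose by 2.04 ± 0.20 (edgeR adjusted p = 0.000593). Tgm3, the transglutaminase of upper epidermis and hair, stood at 26.4 and 63.5, 32.4 and 30.4, 6.27 and 7.80, and 183 and 746 CPM in the same order, and rose by 6.04 ± 0.73 (edgeR adjusted p = 0.00104). In both genes the DMBA/TPA libraries lay above all others. Cornifelin (Cnfn), an envelope component, rose by 2.94 ± 0.32 (edgeR adjusted p = 0.000716) and Csta1, a cystatin A gene, by 2.06 ± 0.17 (0.000342).

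Of 16 genes of filaggrin processing and desquamation, 15 rose, with a median of 1.49, where 22.4% of all genes tested rose. Casp14, the caspase that cuts filaggrin units, rose by 3.33 ± 0.23 (edgeR adjusted p = 0.000249), Asprv1, the protease that cuts profilaggrin, by 2.38 ± 0.14 (0.000166), Padi4, a peptidylarginine deiminase, by 3.92 ± 0.36 (0.000445) and Klk14, a desquamation protease, by 6.80 ± 0.69 (0.000597). Against Control DMBA, Padi4 was not called (log2 0.75, edgeR adjusted p = 0.111). Of 27 transcription factors of terminal differentiation 14 rose and 5 fell, with a median of 0.29, beside 22.4% and 18.3% of all genes tested, so the share that fell is near that of all genes. Ovol1 rose by 1.30 ± 0.17 (edgeR adjusted p = 0.00143), Cebpb by 1.62 ± 0.21 (0.00138) and Barx2 by 1.63 ± 0.19 (0.00091), whereas Gata3, Ahr, Arnt and Trp63, named after their values were seen, and Satb1 were lower. Satb1, a chromatin organizer known to act at this locus in mouse epidermis, fell by 2.08 ± 0.18 (edgeR adjusted p = 0.000429). Against Control DMBA, Barx2 was not called (log2 0.29, edgeR adjusted p = 0.285). Of 8 corneodesmosome genes 3 rose and 1 fell, beside 22.4% and 18.3% of all genes tested. These few genes are not read as moving with the members. The desmoglein gene Dsg1b rose by 1.28 ± 0.21 (edgeR adjusted p = 0.0029), Jup by 0.40 ± 0.14 (0.0488) and Pkp3 by 0.48 ± 0.16 (0.0402). Its relative Dsg1a fell by 1.01 ± 0.21 (edgeR adjusted p = 0.00702), but was not called against Control DMBA (log2 -0.30, edgeR adjusted p = 0.32). The calls of Jup and Pkp3 were lost without either Control DMBA TPA library, without either DMBA library and without DMBA/TPA 2. In that last fit Jup was at 0.299 and Pkp3 at 0.249.

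The S100 genes that lie in the same cluster, left out by the rule, moved in the same direction where called. Of 12 tested, 7 rose in DMBA/TPA, with a median log2 fold change of 1.06, where 22.4% of all genes tested rose. S100a9 and S100a8, which form calprotectin and are made by neutrophils and stressed keratinocytes, rose by 8.88 ± 0.53 (edgeR adjusted p = 0.000199) and 5.45 ± 0.53 (0.000517), while S100a14 and S100a16 rose by 1.28 ± 0.20 (0.00245) and 1.27 ± 0.17 (0.00143). Against Control DMBA, S100a14 was not called (log2 0.53, edgeR adjusted p = 0.0884). The neutrophil list above holds S100a8 and S100a9 themselves.

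Near-identical copies limit which reads could be counted within Sprr2 and Lce3. Of the members' transcripts, Sprr2a1 and Sprr2a2 overlap in the annotation and share nearly all sequence, with 3.72% and 3.53% of their 50-base stretches found in no other gene's transcripts, and Sprr2a3 had 38.9%. In Lce3c to Lce3f the share was 50.7% to 64.3%, and 23 of the 50 members were under 90%. At 100 bases 7 members were under 90%. Reads that aligned to several places, 5.67% to 8.69% of all deposited counts, are not in the counts. Values of single Sprr2a and Lce3 genes are therefore uncertain. Sums over these genes lack the same reads and may be too low. No source used here gives the read length or the strand setting of the counting.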

How the data were processed

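The authors deposited raw count values, reads or fragments per Ensembl gene, in a file for each of the 8 libraries. The submitters' processing notes name the mm10 build and the tools TopHat2, Bowtie2, cutadapt and FastQC. Not given in the sources used here are the versions of these tools, and for the counting its program, strand setting and annotation release. Per the labels' protocols, libraries were directional and depleted of ribosomal RNA. After removal of 5 summary rows, a file had 55487 genes. Symbols and coordinates came from GENCODE M21, which matched 55227 identifiers (99.5%).

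The filterByExpr rule (at least 10 counts in enough libraries, 15 in total) left 19450 genes. TMM scaled the libraries (factors 0.911 to 1.05), and CPM uses these sizes. All 8 libraries were fitted in a model with a mean per group (2 libraries a group) and tested by quasi-likelihood (edgeR 4.0.16, R 4.3.3). A gene was called at a Benjamini-Hochberg adjusted p under 0.05 over all genes tested, and every adjusted p without another tool's name is from this test. The biological coefficient of variation was 0.165. The SE was computed as the size of the log2 value divided by the root of the F statistic. Against a group with 0 counts, folds are lower bounds over 3 counts for the group. For 1 to 3 counts, the ratio has an exact 95% interval. Replicate libraries were not copies of each other: chi-square over its degrees of freedom was 32.1, 13.5, 11.0 and 65.3 in Control DMBA, DMBA, Control DMBA TPA and DMBA/TPA.

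The members and the gene lists were chosen with earlier results of these data known. Values per library are given for a fixed set of 15 genes and, in Sprr2, Lce1 and Lce3, for the 2 members with the highest mean CPM and the 2 with the largest absolute DMBA/TPA log2 fold change. Of each other list, up to 4 genes with the smallest DMBA/TPA adjusted p were taken, and a few of these are not named here. Other members with values were named to account for all members. Krt85 and Cstdc4, which the lists also hold, were not analysed here.

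The pipeline was tested on simulated data. Alternatives were scaling by RLE or by total counts alone, all genes without the low-count filter, DESeq2 1.42.0, limma 3.58.1 voom, the sample number as a replicate block, the compared groups only, other acetone libraries as control, DMBA/TPA against DMBA directly, and leaving out each library. Motifs and unique 50- and 100-base stretches were counted in Python 3.11.15.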

Additional observations from a re-analysis of the deposited data

Results flagged for a closer look

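For 17 of the genes given per library, the response to DMBA/TPA and the response to DMBA differed in the edgeR test of the difference itself, each response taken against its own acetone group. TPA, harvest day and the difference between acetone groups cannot be told apart in it. The differences, on the log2 scale and greater in DMBA/TPA in every case, were 1.15 for Ivl, 1.42 for Hrnr, 1.44 for Crct1, 3.18 for Flg and 6.28 for Rptn. In the proline-rich family they were 3.42 for Sprr1a, 8.12 for Sprr1b, 4.96 for Sprr2a3 and 7.78 for Sprr2d. In the late envelope family they were 2.94 for Lce1a1, 3.91 for Lce1h, 6.37 for Lce1g, 9.09 for Lce3c and 17.4 for Lce3b. Lce3b had 0 counts in DMBA and in Control DMBA TPA, so its fitted value is no bound. It also entered the test only through the DMBA/TPA libraries, so the filter favoured a greater response in advance. Other fused S100 genes had 8.30 for Tchh, 9.23 for Tchhl1 and 9.99 for Crnn, and their acetone libraries ranged widely. With DMBA/TPA set directly against DMBA, Crnn, Sprr1a, Tchh and Tchhl1 were not called. Leaving out a single library ended the call of several: Sprr2a3 was at 1.94 without Control DMBA 2 (edgeR adjusted p = 0.561) and Sprr2d at 7.39 without Control DMBA 1 (0.0596), Sprr1a at 3.13 (0.0516), Ivl at 1.00 (0.0750) and Hrnr at 1.42 (0.119) without DMBA 2. Lce3b was at 17.1 without Control DMBA 1 (0.0652), and without Control DMBA TPA 1 Tchh was at 7.88 (0.111), Tchhl1 at 8.41 (0.0808) and Crnn at 9.19 (0.0947). Ivl, Hrnr, Lce3b, Sprr2a3, Tchh, Tchhl1 and Crnn also lost the call without other single libraries. Groups of 2 libraries are too small for a check of single outlying libraries.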

How the results depend on the processing

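With 2 libraries a group, a single library decides many calls, and members near 0 counts are limited by depth. The DMBA/TPA count of 42 members stayed within 38 to 44 under every alternative (38 to 43 without single libraries), and 35 kept their call in all 17 alternatives, the exceptions being Crnn, Pglyrp3, Sprr2k, Sprr3, Sprr4, Tchh and Tchhl1. The difference of responses, 30 members, ranged from 21 to 42. The DMBA count of 0 became 1 with RLE size factors, 7 without the low-count filter, 3 with DESeq2 and 23 with the other acetone group as control. Calls over all genes, 52 in the main fit, became 62, 661 (of 31680), 428 and 3210 in the same order. Leaving out some single libraries gained a call for Lce1l or Flg. The count between acetone groups, 16, became 29 without the filter and 27 with DESeq2. Calls over all genes went from 1216 to 2451 (of 31680) and 2102 there. Without single libraries the count between acetone groups varied widely, and of the 16 calls 1 remained in all 15 alternatives. With the sample number as a replicate block the counts were 0 for DMBA, 41 for DMBA/TPA, 11 between acetone groups and 29 for the difference. Deviations of same-numbered libraries correlated by -0.202 to 0.0869. These low values show no pairing by number, and with 2 libraries a group they cannot exclude it. Scaling by total counts moved the median log2 fold change of all genes to -0.12 in DMBA/TPA and -0.102 in the difference. With the other acetone group as control, values called in either fit changed sign for Kprp (DMBA/TPA, 1.46), Lce1m (1.08) and Sprr4 (-2.12, and -1.28 with all 4 acetone libraries), and in DMBA for Tchhl1 (5.61), Barx2 (1.22), Csta1 (-0.841) and Padi4 (3.13). Among members called in neither fit, signs also changed for Flg2 in DMBA/TPA (0.74) and in DMBA for Crnn, Hrnr, Lce1k, Lce3a, Lce3c, Rptn, Sprr2f, Sprr2h and Tchh, and with all 4 acetone libraries for Kprp (0.52), Lce1m (0.24) and Flg2 (0.15) in DMBA/TPA and for Lce1k, Rptn and Sprr2h in DMBA. With DMBA/TPA set directly against DMBA, Flg2 changed to 0.924 and Sprr4 to -2.53. The cause of these shifts was not tested.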
